A study of Homo sapiens with 6 samples.

Results

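Replication-dependent histone genes encode the histones that cells make in bulk while DNA is copied. Here they were the protein-coding genes whose current symbol is H1-1 to H1-6, or starts with H2AC, H2BC, H3C or H4C followed by a number. That rule found 70 of the 67026 genes in the count table: 6 H1, 17 H2A, 19 H2B, 13 H3 and 15 H4 genes. They were compared between xenograft tumours with a hairpin against VCAN and tumours with a control hairpin. Of 28 members with enough counts to test, 5 fell and 1 rose in the knockdown tumours, so 21.4% were called, beside 40.3% of the 16254 genes tested in all. H2BC12, H4C8 and H4C5 fell under each of the 16 alternative settings tried.

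The tumours grew from the human prostate cancer cell line PC-3 under the skin of male NSG mice (NOD.Cg-Prkdcscid Il2rgtm1Wjl/SzJ). NSG mice lack mature T, B and natural killer cells but keep myeloid and stromal cells, and they were 4 to 5 weeks old. In the shVCAN group a lentivirus had delivered a short hairpin RNA against VCAN, the gene for versican, a large proteoglycan of the extracellular matrix. The shGFP group carried a hairpin against GFP and is labelled as the knockdown control. Another group that the labels mention was not analysed here. Cells of both groups had passed selection in 2 µg/mL puromycin, and each mouse received 1200000 of them in a mixture of PBS and Matrigel. Tumours were measured for 4 weeks, and total RNA was sequenced as paired reads of 150 bp. The hairpin sequences, and whether the cells were pools or clones, are not given in the labels. The labels number 3 xenografts in each group, called tumours here. They do not say that these came from separate mice, so p-values measure the spread between these samples, which may be technical.

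Libraries held 12959840 to 13327617 counts in shVCAN and 11253058 to 12936539 counts in shGFP. VCAN had 69, 39 and 44 counts in shVCAN tumours 1, 2 and 3, against 133, 104 and 121 in shGFP tumours 1, 2 and 3. Every knockdown tumour was below every control tumour, and the log2 fold change (shVCAN over shGFP) was −1.53 (standard error, SE, 0.207, adjusted p = 4.59e-07 by edgeR's quasi-likelihood test). A gene was called at a Benjamini-Hochberg adjusted p under 0.05, which 19.2% of all genes tested passed as higher and 21.1% as lower in shVCAN. The mitochondrial messenger RNAs held 6.82% ± 0.701 of counts in shVCAN and 14.9% ± 1.43 in shGFP tumours (SD, n = 3 each). Levels are given as CPM, counts scaled to a fixed library size, with library sizes adjusted by TMM, a factor that assumes most genes do not differ between libraries. Summed markers of prostate epithelial cells, 9 of 12 tested, lay at 1354 to 1390 CPM in shVCAN and 1536 to 1666 CPM in shGFP, with KLK2 and KLK3 at 0 in all 6 tumours. Summed fibroblast and pericyte markers, 8 of 10 tested, lay at 397 to 492 CPM in shVCAN and 838 to 944 CPM in shGFP, with 5 called lower and 1 higher. COL1A1 made up most of that sum, at 300.5 ± 48.9 CPM in shVCAN and 619 ± 37.5 CPM in shGFP. The gene called higher, named after its values were seen, was the pericyte marker RGS5 (log2 fold change 0.48, edgeR adjusted p = 0.00088). Those of endothelial cells, 5 of 8 tested, lay at 110.4 to 125 CPM in shVCAN and 169.6 to 176 CPM in shGFP. Those of skeletal muscle, 6 of 9 tested, lay at 179.9 to 274 CPM in shVCAN and 227 to 402 CPM in shGFP, with TNNT3 at 0. Leukocyte markers, 3 of 11 tested, summed to 1.81 to 3.28 CPM in shVCAN and 4.29 to 7.06 CPM in shGFP, with CD163, AIF1, C1QA, C1QB and C1QC at 0. Called lower were 4 prostate epithelial, 4 endothelial, 4 skeletal muscle and 1 leukocyte markers, and none of these 4 lists had a gene called higher. Histone genes are conserved, so reads of the mouse host could also align to the members, and their removal is not stated. The part of these differences and of mouse reads in the histone results was not tested. In bulk tumours, fewer cells of a type and less RNA per cell cannot be told apart.

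DNA winds around a core of H2A, H2B, H3 and H4, and the linker histone H1 binds where the DNA enters and leaves that core. Most replication-dependent histone genes lie in clusters, are transcribed in S phase and end in a short stem-loop in place of a poly(A) tail. The stem-loop binding protein SLBP and a U7 small nuclear ribonucleoprotein direct that cleavage, and a library made by poly(A) selection recovers such transcripts poorly. The labels do not say whether these libraries were made that way. Longer, polyadenylated transcripts are annotated for several of the genes.

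The stem-loop was searched in GENCODE 29 transcripts on GRCh38 as GG, any 2 bases, CTT, any 3 bases, AG, any 2 bases and CC, on the transcript strand, within 100 bases after the stop codon. It was found in 31 members, 20 of them among the 28 tested. Of 52949 other protein-coding transcripts with at least that many annotated bases after the stop, 20 (0.0378%) held those letters. A model without the letters often ended at the stop codon, since 34 members had 50 or more annotated bases beyond it. The models of H2BC12 and H1-2 end there. The following sites show the forms found, with the 16 stem-loop bases in capitals; the coordinates are those of the capitals.
H2AC6 (chr6:26124669-26124684, plus strand): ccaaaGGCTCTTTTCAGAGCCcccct
H2BC9 (chr6:26252055-26252070, plus strand): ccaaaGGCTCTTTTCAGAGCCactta
H2BC5 (chr6:26158587-26158602, plus strand): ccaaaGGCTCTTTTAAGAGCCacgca
H3C6 (chr6:26225596-26225611, plus strand): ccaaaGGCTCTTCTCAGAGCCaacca
H2AC11 (chr6:27133515-27133530, plus strand): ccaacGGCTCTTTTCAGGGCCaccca
H4C5 (chr6:26205001-26205016, plus strand): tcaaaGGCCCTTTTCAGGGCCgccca
H4C8 (chr6:26285131-26285146, minus strand): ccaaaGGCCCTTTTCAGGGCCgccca
H4C9 (chr6:27139654-27139669, plus strand): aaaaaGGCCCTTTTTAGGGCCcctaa
The form of H2AC6 and H2BC9 was the commonest, in 6 H2A, 8 H2B and 3 H3 genes. H4 genes had their own forms: that of H4C5 and H4C8 stood in 5 H4 genes and that of H4C9 in 3. The form of H2BC5 was also that of H2BC4, H2BC7 and H3C8. Those of H3C6 and H2AC11 were each found in 1 member. Of the 31 members, 23 had a model that ran 100 or more bases past the stem-loop. In 14 of these the last 50 bases held the poly(A) signal letters AATAAA. Only 29 members had the same gene version in GENCODE 29 as in the count table, so the models used for counting may differ from these. H2BC12 and H1-4 are not among the 29. Their coordinates given below are those of the GENCODE 29 model, and their reads may have been counted over another interval.

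The counts of the 70 members were few and uneven. Together they held 0.0339% ± 0.00131 of all counts in shVCAN and 0.0351% ± 0.000903 in shGFP tumours. H2AC6 and H2BC12 alone held 42.0% of the counts of all members, the 5 highest members 68.6% and the 10 highest 83.8%. These shares are of reads and are not corrected for transcript length. In all 6 tumours 12 members were at 0, another 10 had 1 to 9 summed counts, and 48 had 10 or more. Of those 48, 28 passed the edgeR filter on low counts. Members with an annotated transcript of 1000 bases or more numbered 21, of which 16 were tested, and they held 56.5% of the counts. Of 47 members with only shorter models, 11 were tested.

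**Figure D1:**
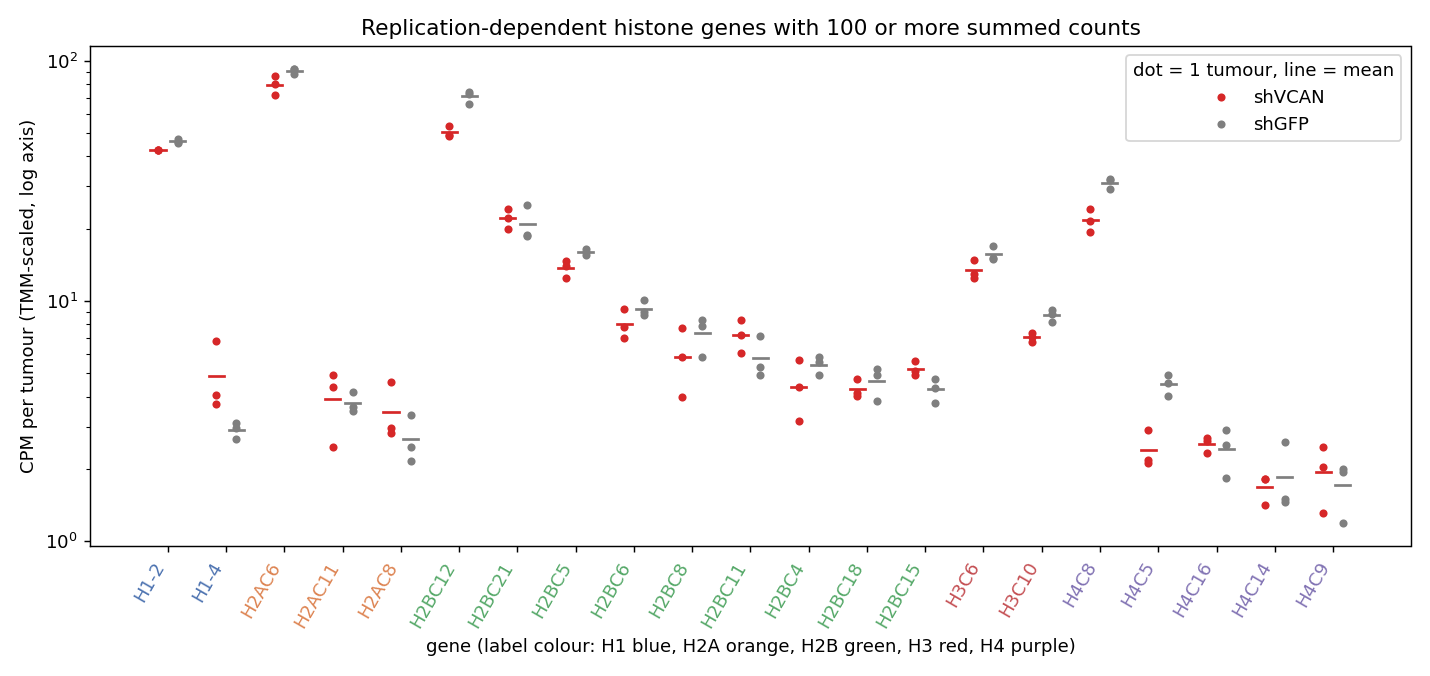
Normalised read counts (CPM on TMM library sizes, log axis) of the 21 tested members with 100 or more summed counts, with 1 dot per tumour and a line at the mean, shVCAN in red left of shGFP in grey. H2BC12, H4C8 and H4C5 show shVCAN dots below every shGFP dot, while the dots of H2BC21, H2AC11 and H4C16 overlap between the groups.

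Of the 28 tested members, 22 were not called. The median log2 fold change of the 28 was −0.13, beside 0.0014 for all genes tested. The groups did not overlap in 13 members (46.4%), with shVCAN below in 10 and above in 3, beside 48.7% of all genes in either direction. A tested member had a median of 318.5 summed counts and a tested gene of any kind 1401.5. Of 21 tested members with 100 or more counts 5 were called, and of 7 with fewer counts 1 was. H2BC9 was the only called member that differed at least 2-fold, and it would not have passed the filter without the shGFP tumours, where it was high. Log2 fold changes of the 22 members that were not called ran from −0.56 to 0.67, with a median SE of 0.247. With library size as the only scaling, the median of all genes moved to 0.17 and that of the members to 0.036. The median of the members lay below that of all genes. A change of scaling moves every gene by nearly the same amount, so it could not alter that gap. Across 16003 genes, which are not independent replicates, the log2 fold change was lower in genes of greater exonic length (Spearman's rho −0.227). The 27 tested members with a gene model had a median exonic length of 1294 bases and all tested genes one of 4592 bases. With an offset that removes each library's trend with length and GC content, 9 members fell and 1 rose, the additional ones being H1-2, H2BC5, H3C6 and H3C10. With the replicate number as a block in that fit, 9 fell and 0 rose, with H2BC8 in place of H1-2.

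**Figure D2:**
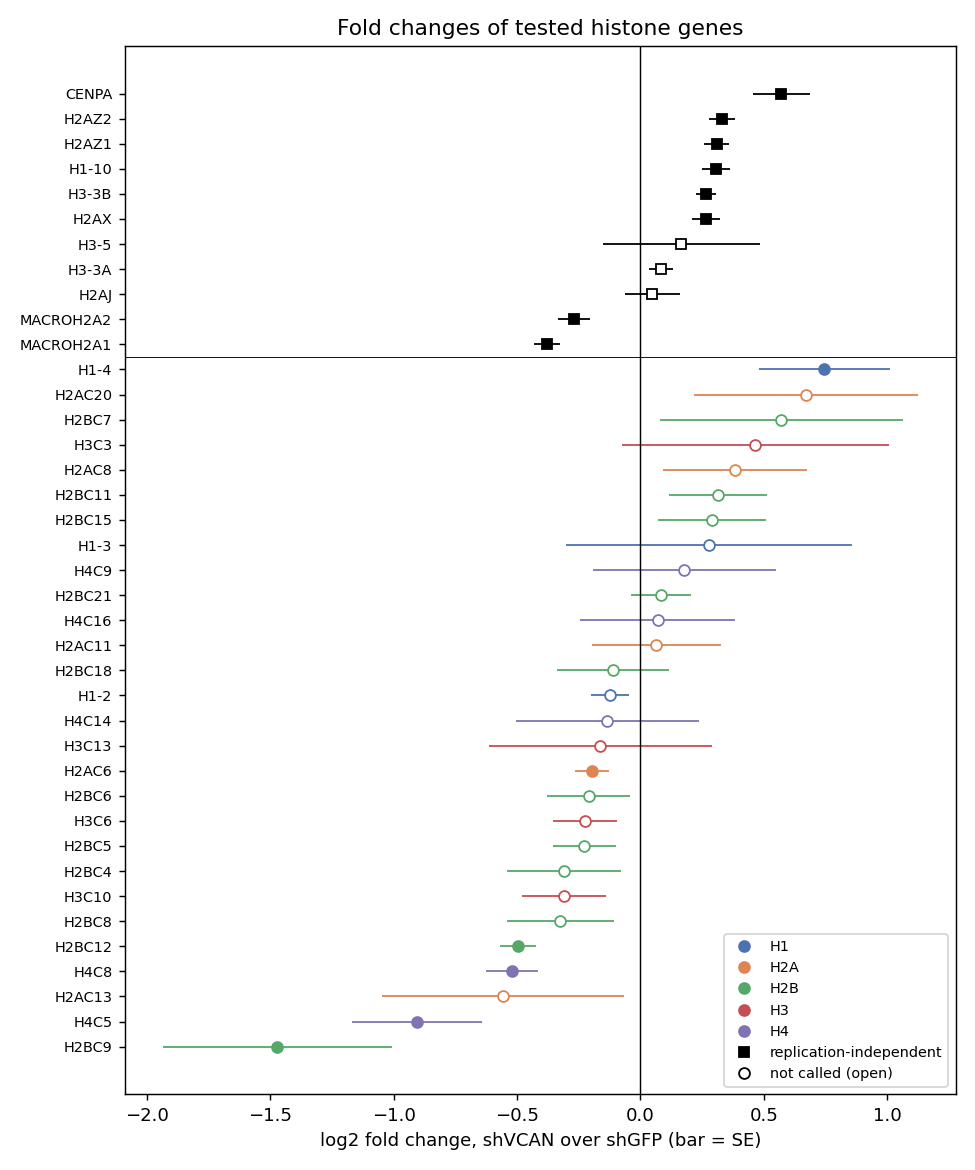
Log2 fold change (shVCAN over shGFP) with its SE for the 28 tested members, coloured by class, below 11 of the 12 tested replication-independent histone genes in black; filled symbols passed an adjusted p under 0.05. The filled members lie at −0.20 and below, from H2AC6 to H2BC9, except H1-4 at 0.75.

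Among the linker histones, H1-4 rose in the knockdown tumours and H1-2 held most of the counts. H1-4 (ENSG00000168298.7, chr6:26156354-26157107, plus strand) had 56, 97 and 51 counts in shVCAN tumours 1, 2 and 3, against 32, 32 and 34 in shGFP tumours 1, 2 and 3. Each shVCAN tumour was above each shGFP tumour, and shVCAN tumour 2 stood apart from shVCAN tumours 1 and 3. The level was 4.88 ± 1.71 CPM in shVCAN and 2.91 ± 0.226 CPM in shGFP tumours (SD, n = 3 each), a log2 fold change of 0.75 (SE 0.265, edgeR adjusted p = 0.0246). Without shVCAN tumour 2 the log2 fold change was 0.42 and the adjusted p 0.278, and without shGFP tumour 1 the adjusted p was 0.0724. It was 0.0519 with limma-voom and 0.0517 with the length and GC offset plus the block. H1-2 (ENSG00000187837.4) had 42.7, 42.3 and 42.5 CPM in shVCAN tumours 1, 2 and 3, against 46.1, 47.3 and 45.6 CPM in shGFP tumours 1, 2 and 3. Its groups did not overlap, with shVCAN below, but the difference did not pass the test, with a log2 fold change of −0.12 (SE 0.0779, edgeR adjusted p = 0.217). The length and GC offset gave −0.19 and an adjusted p of 0.0463 for H1-2. H1-3 had 6, 12 and 12 counts in shVCAN and 7, 2 and 11 counts in shGFP, which overlapped, and a log2 fold change of 0.28 (SE 0.580, edgeR adjusted p = 0.742). The testis linker histone H1-6 had 4, 0 and 2 counts in shVCAN and 0, 2 and 3 counts in shGFP and was not tested.

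H2A pairs with H2B in the nucleosome, and H2AC6 had the most counts of all 70 members. H2AC6 (ENSG00000180573.9, chr6:26124145-26139116, plus strand) had 86.2, 72.3 and 79.9 CPM in shVCAN tumours 1, 2 and 3, against 92.1, 92.7 and 88.4 CPM in shGFP tumours 1, 2 and 3. Every shVCAN tumour was below every shGFP tumour, with shVCAN tumour 2 lowest. Its level was 79.5 ± 6.96 CPM in shVCAN and 91.1 ± 2.33 CPM in shGFP tumours, a log2 fold change of −0.20 (SE 0.0685, edgeR adjusted p = 0.0217). That call was lost in 6 of 16 settings: with library size only the value was −0.030 and the adjusted p 0.765, and with upper quartile factors −0.16 and 0.0672. It was also lost with no filter (adjusted p 0.0508), without shVCAN tumour 2 (0.108), without shGFP tumour 1 (0.0815) and without shGFP tumour 2 (0.0894). With the length and GC offset the log2 fold change was −0.48 (adjusted p = 4.73e-09).

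The other tested H2A genes were not called. H2AC8 had 2.98, 2.82 and 4.60 CPM in shVCAN and 2.17, 3.34 and 2.47 CPM in shGFP, with overlap, and a log2 fold change of 0.39 (SE 0.292, edgeR adjusted p = 0.313). H2AC11 had 4.94, 4.37 and 2.48 CPM in shVCAN and 4.16, 3.62 and 3.47 CPM in shGFP, and its value of 0.065 (SE 0.263, adjusted p = 0.87) changed sign under several settings. H2AC20 had 23, 22 and 18 counts in shVCAN and 14, 14 and 4 counts in shGFP. All shVCAN tumours of H2AC20 were above all shGFP tumours, but at this depth the log2 fold change of 0.67 (SE 0.454, adjusted p = 0.254) did not pass. H2AC13 had 0.363, 0.988 and 0.876 CPM in shVCAN and 0.999, 1.11 and 1.19 CPM in shGFP, with shVCAN just below and a value of −0.56 (SE 0.491, adjusted p = 0.393).

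A further 6 H2A genes with 10 or more counts were under the filter. H2AC4 had 5, 6 and 3 counts in shVCAN and 0, 0 and 0 counts in shGFP, so its reads were seen in shVCAN tumours alone. Its 14 counts were 3.78-fold higher than a floor of 3 counts over the shGFP group, a value that leaves out the counting error of the 14. H2AC4 reached 10 summed counts through shVCAN alone, the group where it was high. Tested with no filter, H2AC4 had an adjusted p of 0.0385. H2AC14 had 8, 12 and 14 counts in shVCAN and 1, 4 and 2 counts in shGFP, with all shVCAN tumours above. Its edgeR adjusted p with no filter was 0.0658, and it was called when shVCAN tumour 1 or shGFP tumour 2 was left out. A smaller group loosens the filter, and H2AC14 then passed it only through shVCAN tumours 2 and 3, where it was high. H2AC15 had 2, 8 and 6 counts in shVCAN and 7, 1 and 20 counts in shGFP, where shGFP tumour 3 stood apart. H2AC16 had 4, 9 and 2 counts in shVCAN and 1, 1 and 2 counts in shGFP, and H2AC12 had 4, 3 and 6 counts in shVCAN and 1, 5 and 4 counts in shGFP. H2AC21 had 2, 5 and 5 counts in shVCAN and 1, 3 and 0 counts in shGFP, and these last 4 genes overlapped between groups. H2AC13 and H2AC14 share most of their 150-base windows with each other, so reads could be split between them.

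H2B genes held the most tested members, 11, of which 2 fell and none rose. H2BC12 (ENSG00000197903.8, chr6:27146418-27146798, minus strand) had 53.3, 48.6 and 49.3 CPM in shVCAN tumours 1, 2 and 3, against 74.4, 72.6 and 66.3 CPM in shGFP tumours 1, 2 and 3. The groups were well apart, since the highest shVCAN tumour was below the lowest shGFP tumour. The level was 50.4 ± 2.53 CPM in shVCAN and 71.1 ± 4.23 CPM in shGFP tumours, a log2 fold change of −0.50 (SE 0.0735, edgeR adjusted p = 2.23e-06). Over the 16 alternatives its log2 fold change lay between −0.54 and −0.33, with an adjusted p of at most 6e-04. H2BC9 (ENSG00000275713.2, chr6:26251651-26253710, plus strand) had 6, 14 and 7 counts in shVCAN tumours 1, 2 and 3, against 20, 15 and 26 in shGFP tumours 1, 2 and 3. The lowest shGFP tumour had 1 count more than the highest shVCAN tumour. Its log2 fold change was −1.47 (SE 0.465, adjusted p = 0.0117). H2BC9 passed the filter through the shGFP tumours, where it was high, since shVCAN tumours 1 and 3 were under the filter's level. It was also called lower with no filter. The adjusted p was 0.0647 without shVCAN tumour 1, 0.0537 without shVCAN tumour 3 and 0.0797 without shGFP tumour 3.

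The 9 other tested H2B genes were not called, and their log2 fold changes lay on both sides of 0. H2BC21 held the most reads of the class after H2BC12 and had 24.2, 19.97 and 22.1 CPM in shVCAN tumours 1, 2 and 3, against 18.7, 18.8 and 25.0 CPM in shGFP tumours 1, 2 and 3. These overlapped, with a log2 fold change of 0.084 (SE 0.122, edgeR adjusted p = 0.619). H2BC5 had 13.9, 12.5 and 14.7 CPM in shVCAN and 15.6, 15.98 and 16.5 CPM in shGFP. All shVCAN tumours of H2BC5 were below, with a log2 fold change of −0.23 (SE 0.128, edgeR adjusted p = 0.165), and with the length and GC offset −0.37 (adjusted p = 0.0177). H2BC6 had 9.29, 7.83 and 7.01 CPM in shVCAN and 10.1, 8.73 and 9.04 CPM in shGFP, with overlap and a log2 fold change of −0.21 (SE 0.168, edgeR adjusted p = 0.345). Part of its exons lies opposite another gene, and it is not known whether strand was used in counting. H2BC8 had 3.99, 7.69 and 5.84 CPM in shVCAN and 5.83, 8.36 and 7.85 CPM in shGFP, with overlap and a log2 fold change of −0.32 (SE 0.216, edgeR adjusted p = 0.244). Without shVCAN tumour 2 its log2 fold change was −0.57 (adjusted p = 0.0432).

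As with H2BC21, mean levels were higher in shVCAN for 3 further H2B genes, none of them called. H2BC11 had 8.35, 6.07 and 7.22 CPM in shVCAN and 5.33, 7.15 and 4.93 CPM in shGFP, with overlap and a log2 fold change of 0.31 (SE 0.200, edgeR adjusted p = 0.221). H2BC15 had 4.94, 5.64 and 5.11 CPM in shVCAN and 3.75, 4.37 and 4.75 CPM in shGFP. Its shVCAN tumours were all above, with a log2 fold change of 0.29 (SE 0.219, edgeR adjusted p = 0.314), and its model overlaps H2AC15 and H2AC16. H2BC7 had 12, 16 and 16 counts in shVCAN and 12, 5 and 7 counts in shGFP, with overlap and a log2 fold change of 0.57 (SE 0.492, edgeR adjusted p = 0.383). H2BC4 had a lower mean in shVCAN, with 5.66, 3.18 and 4.38 CPM in shVCAN and 5.83, 4.92 and 5.57 CPM in shGFP and a log2 fold change of −0.31 (SE 0.231, edgeR adjusted p = 0.308). H2BC18 did too, with 4.14, 4.73 and 4.01 CPM in shVCAN and 3.83, 4.92 and 5.21 CPM in shGFP and a log2 fold change of −0.11 (SE 0.228, edgeR adjusted p = 0.735). Both genes overlapped between groups.

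Under the filter, 4 H2B genes had 10 or more counts. H2BC17 had 4, 6 and 10 counts in shVCAN and 2, 13 and 2 counts in shGFP, H2BC3 had 4, 5 and 2 counts in shVCAN and 4, 4 and 5 counts in shGFP, and H2BC13 had 4, 9 and 3 counts in shVCAN and 4, 1 and 0 counts in shGFP. H2BC14 had 2, 4 and 0 counts in shVCAN and 3, 3 and 3 counts in shGFP. All 4 overlapped between groups.

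No H3 gene was called, and H3C6 and H3C10 held most H3 counts. H3 pairs with H4 at the centre of the nucleosome. H3C6 had 12.9, 12.5 and 14.9 CPM in shVCAN tumours 1, 2 and 3, against 16.9, 15.1 and 14.98 CPM in shGFP tumours 1, 2 and 3. Its highest shVCAN tumour was just below its lowest shGFP tumour, with a log2 fold change of −0.22 (SE 0.131, edgeR adjusted p = 0.18). H3C10 had 7.33, 7.06 and 6.79 CPM in shVCAN tumours 1, 2 and 3, against 8.83, 9.20 and 8.22 CPM in shGFP tumours 1, 2 and 3. Its groups did not overlap either, with a log2 fold change of −0.31 (SE 0.169, edgeR adjusted p = 0.15). With the length and GC offset both passed, at −0.38 (adjusted p = 0.0177) for H3C6 and −0.48 (adjusted p = 0.0223) for H3C10. H3C13 had 13, 17 and 12 counts in shVCAN and 12, 10 and 16 counts in shGFP, with overlap and a log2 fold change of −0.16 (SE 0.452, edgeR adjusted p = 0.808). H3C3 had 12, 6 and 18 counts in shVCAN and 6, 9 and 6 counts in shGFP, with overlap and a log2 fold change of 0.47 (SE 0.543, edgeR adjusted p = 0.53). Of the untested H3 genes, H3C2 had 11, 22 and 7 counts in shVCAN and 8, 4 and 6 counts in shGFP, where shVCAN tumour 2 was highest. H3C1 had 4, 5 and 9 counts in shVCAN and 10, 6 and 9 counts in shGFP, H3C7 had 2, 0 and 2 counts in shVCAN and 4, 0 and 4 counts in shGFP, and H3C15 had 0, 3 and 3 counts in shVCAN and 2, 4 and 0 counts in shGFP. These 4 overlapped between groups.

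H4 genes encode the same protein or nearly so, and among them H4C8 and H4C5 fell. H4C8 (ENSG00000158406.4, chr6:26277609-26285638, minus strand) had 21.5, 24.1 and 19.3 CPM in shVCAN tumours 1, 2 and 3, against 29.4, 31.9 and 32.1 CPM in shGFP tumours 1, 2 and 3. Each shVCAN tumour was below each shGFP tumour. The level was 21.7 ± 2.40 CPM in shVCAN and 31.1 ± 1.49 CPM in shGFP tumours, a log2 fold change of −0.52 (SE 0.105, edgeR adjusted p = 0.000164). Its log2 fold change lay between −0.74 and −0.35 over the 16 alternatives, with an adjusted p of at most 0.00747. H4C5 (ENSG00000276966.2, chr6:26204552-26206038, plus strand) had 2.90, 2.12 and 2.19 CPM in shVCAN tumours 1, 2 and 3, against 4.58, 4.92 and 4.02 CPM in shGFP tumours 1, 2 and 3. Here too the groups did not overlap, and shVCAN tumour 1 was nearest to the controls. The level was 2.40 ± 0.435 CPM in shVCAN and 4.51 ± 0.457 CPM in shGFP tumours, a log2 fold change of −0.91 (SE 0.264, edgeR adjusted p = 0.00649). Over the alternatives it lay between −1.13 and −0.74, with an adjusted p of at most 0.0326.

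Another 3 H4 genes were tested and not called, each with overlapping groups. H4C16, on chromosome 12, had 2.69, 2.61 and 2.34 CPM in shVCAN and 2.91, 2.51 and 1.83 CPM in shGFP, with a log2 fold change of 0.070 (SE 0.313, edgeR adjusted p = 0.884). H4C9 had 2.47, 2.05 and 1.31 CPM in shVCAN and 2.00, 1.95 and 1.19 CPM in shGFP, with a log2 fold change of 0.18 (SE 0.371, edgeR adjusted p = 0.74). H4C14 had 1.81, 1.41 and 1.82 CPM in shVCAN and 1.499, 2.60 and 1.46 CPM in shGFP, with a log2 fold change of −0.13 (SE 0.371, edgeR adjusted p = 0.807), and it shares most 150-base windows with H4C15. Under the filter, H4C4 had 3, 0 and 2 counts in shVCAN and 14, 2 and 13 counts in shGFP. With no filter it was called lower (edgeR adjusted p = 0.0123). It was also called lower when shVCAN tumour 1, 2 or 3 or shGFP tumour 2 was left out. A smaller group loosens the filter, and H4C4 then passed it only through shGFP tumours 1 and 3, where it was high. Those calls with a tumour left out are therefore no separate support for H4C4. Its shGFP tumour 2 was as low as the shVCAN tumours. H4C11 had 5, 8 and 12 counts in shVCAN and 5, 7 and 7 counts in shGFP, and H4C12, which shares most windows with H4C11, had 10, 6 and 6 counts in shVCAN and 8, 8 and 4 counts in shGFP. H4C3 had 9, 9 and 8 counts in shVCAN and 1, 3 and 10 counts in shGFP, and H4C1 had 3, 6 and 6 counts in shVCAN and 9, 1 and 0 counts in shGFP. These 5 overlapped between groups.

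Promoter sequence was at hand for 64 members, from RefSeq on GRCh38.p14, as 250 bases before to 50 after the start. The octamer ATTTGCAT, searched on both strands, stood in 11 of 16 H2A, 14 of 18 H2B, 1 of 11 H3, 0 of 13 H4 and 0 of 6 H1 promoters, beside 1.77% of 35116 promoters. The H3 match is that of H3C4, for which the table holds the same window as for H2AC7, so 1 sequence is counted under both classes. Windows of H2A and H2B genes that start close together on opposite strands also overlap. Their shared letters are counted in both classes, as the octamer of H2AC6 and H2BC4 is. The counts per class, and the shares of the members' promoters below, are thus not of separate sequences. TATAAA stood in 65.6% of the members' promoters, beside 11.5% of all. CCAAT stood in 84.4% of the members' promoters, beside 34.6% of all. The called genes H2AC6 and H2BC12 are shown with the octamer, on either strand, in capitals. H4C5 and H4C8, which fell, are shown with the longest run of letters they share in capitals.
H2AC6 promoter (chr6:26123922-26124221, plus strand): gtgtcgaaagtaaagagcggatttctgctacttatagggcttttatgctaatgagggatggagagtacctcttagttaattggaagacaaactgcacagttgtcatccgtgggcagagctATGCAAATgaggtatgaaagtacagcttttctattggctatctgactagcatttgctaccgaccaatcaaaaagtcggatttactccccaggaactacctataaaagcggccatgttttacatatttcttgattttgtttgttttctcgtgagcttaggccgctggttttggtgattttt
H2BC12 promoter (chr6:27146809-27147108, minus strand): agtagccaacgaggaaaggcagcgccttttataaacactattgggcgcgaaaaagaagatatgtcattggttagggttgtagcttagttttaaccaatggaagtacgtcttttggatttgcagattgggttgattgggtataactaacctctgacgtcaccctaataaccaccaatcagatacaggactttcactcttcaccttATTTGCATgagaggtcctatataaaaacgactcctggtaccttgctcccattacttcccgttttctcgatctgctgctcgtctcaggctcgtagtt
H4C5 promoter (chr6:26204360-26204659, plus strand): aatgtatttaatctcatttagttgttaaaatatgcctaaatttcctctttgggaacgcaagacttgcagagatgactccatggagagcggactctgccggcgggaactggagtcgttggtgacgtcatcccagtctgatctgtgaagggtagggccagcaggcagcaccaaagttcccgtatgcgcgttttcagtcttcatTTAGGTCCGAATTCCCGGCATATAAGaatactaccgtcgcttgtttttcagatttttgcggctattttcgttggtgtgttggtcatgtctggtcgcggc
H4C8 promoter (chr6:26285485-26285784, minus strand): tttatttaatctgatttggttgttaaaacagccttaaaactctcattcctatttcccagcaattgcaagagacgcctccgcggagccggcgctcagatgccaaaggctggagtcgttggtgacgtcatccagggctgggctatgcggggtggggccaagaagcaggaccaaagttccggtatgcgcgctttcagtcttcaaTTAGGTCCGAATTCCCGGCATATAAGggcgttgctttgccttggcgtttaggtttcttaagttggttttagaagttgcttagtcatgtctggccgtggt
The run shared by H4C5 and H4C8 is 26 bases long and was picked after both sequences were seen. Among all 35116 promoters it stood in 3, which are those of H4C5, H4C8 and LOC124901287. The letters GGTCC inside it stood in 12 of 13 H4 promoters and in 46.3% of all. These matches describe the letters and not the binding of a factor.

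H2A and H2B genes often share 1 promoter region and are transcribed away from each other. Among members with a promoter sequence there were 11 such pairs, with starts 194 to 248 bases apart. H2AC12 had no promoter sequence at hand, and in the GENCODE 29 models it starts 331 bases from H2BC12 on the opposite strand; it had too few counts to test. Both genes were tested in 4 of the 11 pairs. H2AC6 fell at −0.20, and its partner H2BC4 was at −0.31 and not called. H2AC8 was at 0.39 and H2BC8 at −0.32, neither called. H2AC11 was at 0.065 with H2BC11 at 0.31, and H2AC20 at 0.67 with H2BC21 at 0.084, none of them called. The difference between partners was not tested.

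Summed over members, the level was lower in the knockdown tumours. The 70 genes summed to 333, 313 and 317 CPM in shVCAN tumours 1, 2 and 3, against 371, 378 and 369 CPM in shGFP tumours 1, 2 and 3. The groups did not overlap on this scale, and the log2 ratio of the means was −0.22. With library size only the ratio was −0.049 and the groups overlapped, with 354, 333 and 330.3 CPM in shVCAN tumours 1, 2 and 3, against 344, 361 and 347 CPM in shGFP tumours 1, 2 and 3. Of the 5 classes, only H4 had every shVCAN tumour below every shGFP tumour with library size only. H4 had the lowest ratio of the 5 classes, at 32.7 ± 2.55 CPM in shVCAN and 44.5 ± 1.33 CPM in shGFP (log2 ratio −0.44). H2B summed to 124.2 ± 5.26 CPM in shVCAN and 148.7 ± 1.40 CPM in shGFP (−0.26). H3 summed to 24.1 ± 1.13 CPM in shVCAN and 28.1 ± 1.13 CPM in shGFP (−0.22). H2A summed to 91.7 ± 6.59 CPM in shVCAN and 101.3 ± 2.49 CPM in shGFP (−0.14, turning to 0.023 with library size only). Of the 5 classes only H1 overlapped with TMM, at 48.3 ± 1.53 CPM in shVCAN and 50.0 ± 0.629 CPM in shGFP (−0.051, turning to 0.12 with library size only, where every shVCAN tumour was above every shGFP tumour). By place, the sum was lower in shVCAN for 34 genes of the proximal chromosome 6 cluster (log2 ratio −0.22) and for 21 genes of the second chromosome 6 cluster (−0.32). With library size only these were −0.049 and −0.15, both with overlapping groups. The 11 genes of the large chromosome 1 cluster gave 0.065, 0.23 with library size only and −0.011 without shGFP tumour 1, with overlap under both scalings. Single genes weighed heavily in these sums. H2BC12 was at 50.4 CPM in shVCAN and 71.1 CPM in shGFP, within 80.5 and 100.3 CPM for the second chromosome 6 cluster. The 7 tested members of that cluster had a median log2 fold change of 0.065. H2AC6 was at 79.5 and 91.1 CPM within the H2A sum, and H4C8 at 21.7 and 31.1 CPM within the H4 sum. Medians of tested members were 0.065 for H2A, −0.21 for H2B, −0.19 for H3, −0.13 for H4 and 0.28 for H1. The sums were described and not tested.

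**Figure D3:**
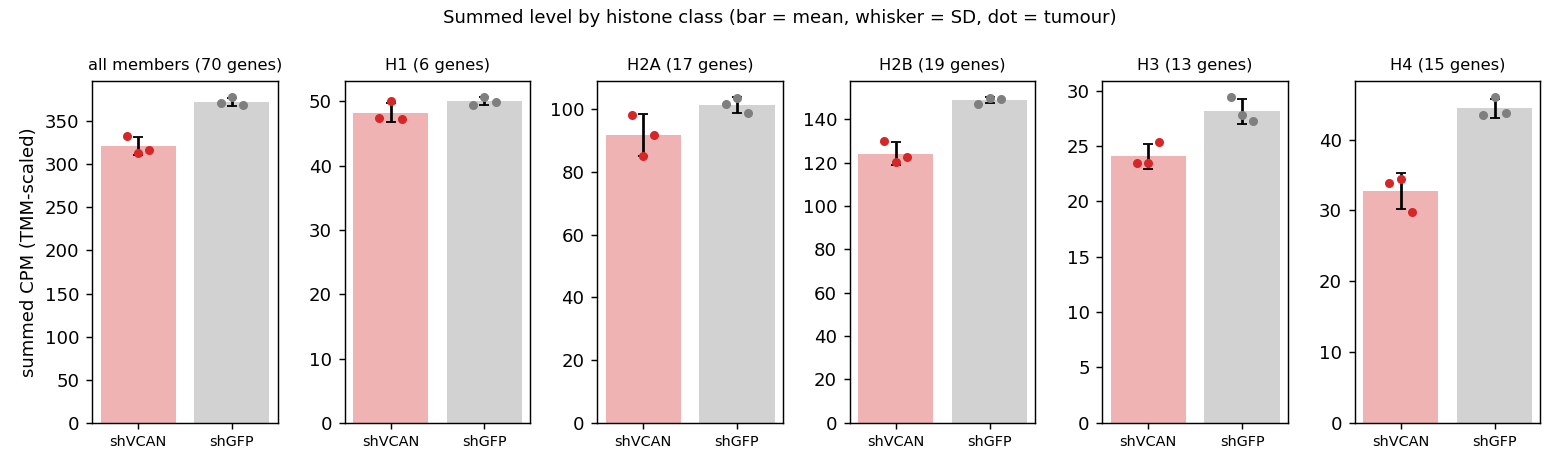
Summed level (CPM on TMM library sizes) of all 70 members and of each class, with a bar at the mean, a whisker for the SD and 1 dot per tumour, shVCAN in red left of shGFP in grey. All shVCAN dots lie below all shGFP dots for the 70 genes, H2A, H2B, H3 and H4, and the H1 dots overlap; with library size only, they lie below for H4 alone.

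Replication-independent histone genes, most of which are expressed outside S phase too and from polyadenylated transcripts, were higher in shVCAN in 6 and lower in 3 of the 12 tested, with a median log2 fold change of 0.22. That median was 0.060 with the length and GC offset and 0.38 with library size only, which called 1 lower. H3-3B, which encodes the replacement histone H3.3, was at 1233 ± 5.10 CPM in shVCAN and 1026 ± 4.45 CPM in shGFP tumours (log2 fold change 0.27, SE 0.0404, edgeR adjusted p = 3.31e-06). The H2A.Z genes H2AZ1 (0.31) and H2AZ2 (0.33) rose as well. MACROH2A1 (−0.38), found on the inactive X chromosome and silent chromatin, fell. With the offset H2AZ1 was at 0.16, H3-3B at 0.40 and MACROH2A1 at −0.16, all still called. Another 13 histone genes outside the rule, mostly of the testis, had too few counts to test.

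Genes that make and process replication-dependent histone messenger RNA rose in 11 and fell in 6 of 25 tested, with a median log2 fold change of 0.14. That median moved with single tumours: it was 0.040 without shGFP tumour 1, which left 8 called higher, 0.045 without shVCAN tumour 3 and 0.22 without shVCAN tumour 2. Without shVCAN tumour 3, without shGFP tumour 3 and with upper quartile factors, 3 were called lower. With library size only the median was 0.30, with 2 called lower. With the length and GC offset the median was 0.11, with 9 called higher and 4 lower. SLBP, which binds the stem-loop, was at 51.2 ± 2.16 CPM in shVCAN and 42.5 ± 2.97 CPM in shGFP tumours (log2 fold change 0.27, SE 0.0802, edgeR adjusted p = 0.0076). With the length and GC offset SLBP was at 0.12 and no longer called (adjusted p = 0.227). NPAT, the coactivator of these genes in S phase, was at 13.8 ± 1.64 CPM in shVCAN and 12.5 ± 1.67 CPM in shGFP tumours (log2 fold change 0.14, SE 0.143, edgeR adjusted p = 0.48) and was not called. SNRPG (1.02), SNRPE (0.56) and SNRPF (0.48), Sm proteins found in the U7 and in the spliceosomal particles, rose. With the offset SNRPE was at 0.28 and SNRPF at 0.20, both still called. UPF1, a helicase needed to degrade histone messenger RNA when DNA synthesis stops, fell (−0.45, or −0.24 with the offset). CASP8AP2 and CTIF were listed at 0. Among histone chaperones 9 of 22 tested rose and 5 fell, with a median of 0.080. That median was 0.038 without shVCAN tumour 3 and 0.25 with library size only. With the offset 7 were called higher and 2 lower, and without shVCAN tumour 1 or shGFP tumour 2, 3 were called lower. NAP1L1 (0.49), RBBP7 (0.43) and DNAJC9 (0.30) rose and UBN1 (−0.44, or −0.24 with the offset) fell, and ASF1B and IPO4 were listed at 0.

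S phase and DNA replication genes rose in 16 and fell in 3 of 42 tested, with a median log2 fold change of 0.12. That median was 0.20 without shGFP tumour 2 and 0.28 with library size only, which called 28 higher and 1 lower. Beside these calls and those of the lists above, 19.2% of all genes tested were called higher and 21.1% lower. The thymidylate synthase TYMS (0.58), the dUTPase DUT (0.61) and the sliding clamp PCNA (0.43, or 0.20 with the offset) rose, and the helicase subunit MCM3 (−0.48) fell. Among RNAs without a poly(A) tail, 4 of 28 were tested. RN7SL1, the RNA of the signal recognition particle, was at 3003 ± 124 CPM in shVCAN and 687 ± 79.5 CPM in shGFP tumours (log2 fold change 2.13, SE 0.0559, edgeR adjusted p = 6.61e-23). RN7SL3, a near copy that can share its reads, rose by 2.94 on the log2 scale. MALAT1, a nuclear RNA, was at 0.098 and not called, and RN7SL2, RN7SK and 14 others were listed at 0. The summed level of these RNAs lay at 3741 to 4079 CPM in shVCAN and 1365 to 1572 CPM in shGFP, nearly all of it RN7SL1 and MALAT1. SNORD3A, a small nucleolar RNA named after its values were seen, went the other way, with 1, 0 and 0 counts in shVCAN tumours 1, 2 and 3, against 23, 7 and 18 in shGFP tumours 1, 2 and 3. It did not pass the filter; with no filter 12 of these RNAs were tested, of which 3 were called higher and 1 lower. Its part in the histone values was not tested.

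The counts of members were also set against those of related genes within each tumour, which needs no scaling between libraries. Per count of replication-independent histone genes, members had 0.114, 0.106 and 0.107 counts in shVCAN tumours 1, 2 and 3, against 0.142, 0.142 and 0.143 in shGFP tumours 1, 2 and 3, a log2 ratio of the means of −0.39. Per count of S phase genes they had 0.144 ± 0.00552 in shVCAN and 0.182 ± 0.00131 in shGFP (log2 ratio −0.34). Per count of histone processing genes they had 0.182 ± 0.00663 in shVCAN and 0.239 ± 0.00226 in shGFP (−0.39), and per count of chaperone genes 0.152 ± 0.00531 in shVCAN and 0.197 ± 0.00293 in shGFP (−0.37). In each of these 4 ratios every shVCAN tumour was below every shGFP tumour. Among all single genes on the TMM scale, 48.7% had groups that did not overlap. That share counts both directions and is not of ratios of sums, so it is no direct match. The 4 ratios share 1 numerator, in which H2AC6 and H2BC12 held 42.0% of counts. All 4 denominators were themselves higher in shVCAN on the TMM scale. The replication-independent genes summed to 2925 to 2963 CPM in shVCAN and 2588 to 2664 CPM in shGFP. H3-3B, which rose, held the most counts of that list, at 1233 CPM in shVCAN and 1026 CPM in shGFP. The S phase genes summed to 2217 to 2248 CPM in shVCAN and 2026 to 2093 CPM in shGFP. No test was run on them, since the lists were chosen with earlier results of these data known.

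**Figure D4:**
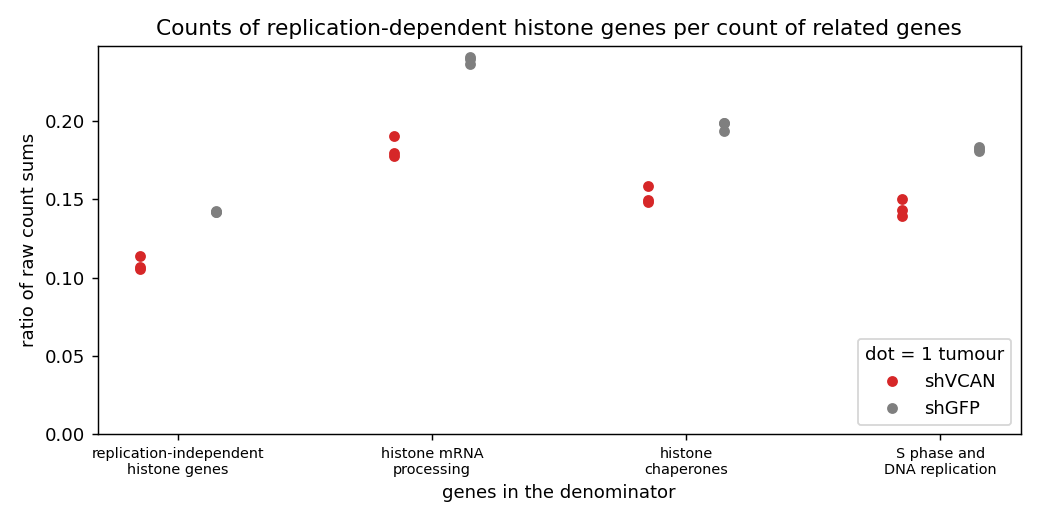
Ratio of summed raw counts of the 70 members to summed raw counts of 4 related lists, with 1 dot per tumour, shVCAN in red left of shGFP in grey. For the replication-independent histone genes the shVCAN dots lie at 0.106 to 0.114 and the shGFP dots at 0.142 to 0.143.

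The remaining members had almost no reads. H2AC19 had 5 summed counts, H4C15 6, H4C2 and H3C12 9 each, H3C14 3, H2AC17 and H2BC12L 2 each, and H2AC18, H2AC7 and H3C8 1 each. H3C12 had 0, 1 and 0 counts in shVCAN and 1, 4 and 3 counts in shGFP. The 12 members at 0 were H1-1, H1-5, H2AC1, H2AC25, H2BC1, H2BC10, H2BC26, H3C4, H3C11, H4C6, H4C7 and H4C13. H2AC1 and H2BC1 are histone genes of the testis.

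Pseudogenes of the clusters were counted apart from the members. H2BC19P was at 4.86 ± 0.714 CPM in shVCAN and 6.40 ± 0.82 CPM in shGFP (log2 fold change −0.40, edgeR adjusted p = 0.128). H2BC20P was at 8.62 ± 0.423 CPM in shVCAN and 10.4 ± 1.52 CPM in shGFP (−0.27, adjusted p = 0.186). Neither was called, and the other 13 had 8 or fewer counts each. Of the 70 members, 15 shared 50% or more of their 150-base windows exactly with another gene, so the split of their reads is uncertain. None of the 6 called members was among them in the models used here.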

How the data were processed

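RNA from 3 shVCAN and 3 shGFP tumours was compared. The authors deposited 1 table of raw counts, in whole numbers, with a versioned Ensembl identifier per row. Per the submitters' processing notes, the tools were Trim Galore, STAR and DESeq2 and the build was hg38. Not given in the sources used here are the counter, its annotation and strand setting, the library selection and any removal of mouse reads. The 45 pseudoautosomal second copies, all at 0, were left out, and symbols came from a symbol table (60370 identifiers) and GENCODE 29 (289).

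Counts were tested with edgeR 4.0.16 in R 4.3.3: the quasi-likelihood test with group as the only term, TMM scaling, the filterByExpr filter and Benjamini-Hochberg adjustment over 16254 genes. The method was checked on simulated counts. SE is the log2 fold change divided by the square root of F. CPM uses TMM library sizes. Depth was 11253058 to 13327617 counts, so a member with few counts carries large counting error. The common biological coefficient of variation was 6.63%. Members and lists were chosen with earlier results of these data known, so no list was tested. Named genes were VCAN, every member with 10 or more summed counts, up to 4 called genes of a list with the smallest p, and RN7SL1, RN7SL2, RN7SL3, RN7SK, MALAT1, SLBP and NPAT; members below 10 counts and genes at 0 were added to account for all. The values of 1 gene of the replication-independent list are not reported here.

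Alternatives changed the scaling (upper quartile factors, DESeq2 size factors or library size only), the filter (none, or 1 CPM in 3 samples) or the test (limma-voom of limma 3.58.1 or the Wald test of DESeq2 1.42.0). Others added the replicate number as a block, an offset for the trend with exonic length and GC content (natural spline, 4 degrees of freedom, genes of at least 4 CPM outside the members), that offset with the block, or left out each tumour in turn.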

Additional observations from a re-analysis of the deposited data

How the results depend on the processing

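H2BC12, H4C8 and H4C5 were called lower under all 16 alternatives, and the calls lost for H2AC6, H2BC9 and H1-4 are given beside them. Library size only called 5228 genes higher and 1890 lower. Members called higher were 2 with no filter, 0 with limma-voom and 0 with the length and GC offset plus the block, and 0 to 2 with a tumour left out. Members called lower were 9 with that offset, with or without the block, and 4 to 6 with a tumour left out. Some counts with a tumour left out include H2AC14 or H4C4, which passed the loosened filter only through the group where they were high. The median log2 fold change of tested members was −0.089 with upper quartile factors, 0.036 with library size only, −0.053 with no filter, −0.20 with the offset, −0.20 with offset and block, and −0.13 to −0.054 with a tumour left out, the last without shGFP tumour 3. Summed log2 ratios with library size only were −0.049 for all members, 0.12 for H1, 0.023 for H2A, −0.093 for H2B, −0.058 for H3, −0.28 for H4, −0.049 for the proximal and −0.15 for the second chromosome 6 cluster, and 0.23 for the large chromosome 1 cluster; with upper quartile factors they were −0.18 for all members and for the proximal cluster and −0.012 for H1. The large chromosome 1 cluster ran from −0.011 to 0.16 with a tumour left out. The cause of these shifts was not tested.

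Signs turned for members that were not called under the setting concerned, with adjusted p between 0.647 and 0.995. Library size only gave 0.054 for H2BC18, 0.0040 for H3C13, 0.030 for H4C14 and 0.043 for H1-2. The offset gave −0.075 for H2BC21, −0.10 for H2AC11, −0.025 for H4C9 and −0.026 for H4C16, and offset with block gave −0.069 for H2BC21, −0.13 for H2AC11, −0.026 for H4C9 and −0.011 for H4C16. With a tumour left out the values ran from −0.13 to 0.31 for H2AC11, −0.028 to 0.39 for H4C9, −0.31 to 0.065 for H3C13, −0.090 to 0.24 for H4C16, −0.27 to 0.19 for H4C14 and −0.12 to 0.86 for H1-3.

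Same-numbered tumours did not deviate together (correlations 0.018, 0.016 and −0.027), so the numbers were not taken as pairs. With the replicate number as a block 1 member was called higher and 5 lower, and the median was −0.12. Of the related lists, S phase genes called higher were 28 with library size only and 12 with the Wald test of DESeq2, and the fewest genes called lower were 1 of the replication-independent histones, 2 of the processing genes and 2 of the chaperones, each with library size only and, for the chaperones, also with the offset with or without the block. At this depth members with few counts could not show small differences.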
